A study of Sus scrofa with 226 samples.

Results

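PCP4, PLCD4 and ENO2 are 3 of the 30420 genes measured in single neurons from pig dorsal root ganglia, which hold the cell bodies of sensory nerves next to the spinal cord. They were chosen because they led a small cluster of these cells that also carried TRPM8 and NTRK2. Their levels in that cluster, and their joint presence with TRPM8 and NTRK2, are therefore given as a description with no test. The clustering, not the recorded electrical values, set the choice, and those values are tested. Earlier results of these data were known when the members were chosen. The study recorded and then harvested cultured neurons from 10 wild-type pigs, labelled WT, and sequenced each cell by Smart-Seq2, with 6 to 35 cells per animal (mean 22.6). The animals were 11, 12, 14, 15, 17, 18 or 20 weeks old. Cells had been in culture for 1 day (54.9% of cells), 2 days (34.5%, 78 cells) or 3 days (10.6%, 24 cells from 3 animals). Ganglia came from several spinal levels, and no treatment, transgene or disease group is given in the labels. Each animal has 1 age, so age cannot be told apart from the animal.

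PCP4 encodes a small protein that binds calmodulin, the main calcium sensor of neurons, and changes how quickly calmodulin takes up and releases calcium. PLCD4 encodes an enzyme of the phospholipase C delta family, which cleaves the membrane lipid PIP2 into the messengers IP3 and diacylglycerol when calcium is present. ENO2 encodes gamma enolase, the neuronal form of a glycolytic enzyme and a long-used marker of neurons. TRPM8 is the cold- and menthol-gated channel of sensory neurons, whose gating needs PIP2, and NTRK2 encodes TrkB, the receptor of brain-derived neurotrophic factor.

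Total estimated counts ran from 109726 to 5506278 per cell (median 740524.5), and a cell had between 3067 and 20588 genes with a read. The neuronal gene UCHL1 was present in every cell of both groups compared below for the number of members carried, at 60.96 CPM (counts per 1000000 counts of the cell) or more. No pair of cells had a correlation across genes above 0.883, against a median of 0.621. The animal is the replicate throughout, and cells of 1 animal share their dissociation, culture and part of their library preparation. A cell is called positive for a gene at 20 CPM or more. Gene lengths were not used, so levels and shares are not ranked between genes.

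PCP4 (ENSSSCG00000037110) was positive in 87 cells, or 38.5% (exact 95% interval 32.1 to 45.2%, counting error only). Its level ran from 0 in 84 cells through a median of 5.83 CPM to 3717 CPM, and 51 cells were at 100 CPM or more. Over the 10 animals the share of positive cells was 0% at the lowest, 34.1% at the median and 68.6% at the highest. The gene was thus spread over most animals, with animal 4 at the top (24 of 35 cells) and animal 8, with 6 cells, at 0.

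PLCD4 (ENSSSCG00000016192) was positive in 23 cells, or 10.2% (6.56 to 14.9%), and was at 0 in 71.2%. The highest cell had 2551 CPM, the only positive one among the 31 cells of animal 6. The next had 608 CPM, and the 5 highest cells held 70.3% of the gene's summed CPM. Its share of positive cells by animal was 0% at the lowest, 7.62% at the median and 37.5% at the highest. The highest share was that of animal 10 (6 of 16 cells), and animal 8 again had none. RefSeq, which was not the source of the gene names here, lists PLCD4 as 2 entries, and the counts hold 1 identifier for it. Whether part of its reads lies elsewhere, which would lower its values, was not tested.

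ENO2 (ENSSSCG00000028373) was positive in 53 cells, or 23.5% (18.1 to 29.5%), with a median of 1.71 CPM, a highest value of 687 CPM and 90 cells at 0. By animal the share was 0% at the lowest, 17.4% at the median and 56.2% at the highest, again in animal 10 (9 of 16 cells). A gene used as a marker of neurons was thus under 20 CPM in most of these neurons. ENO1, the enolase of most tissues, was positive in 96.02% of the cells. Gene lengths were not used, so the shares of ENO2 and ENO1 are not compared, and a level under 20 CPM is not absence. How fully the gene model of ENO2 takes up its reads was not tested. The cells next to the limit of 20 CPM stood at 18.3 and 20.6 CPM for PCP4, 18.7 and 23.5 CPM for PLCD4, and 19.4 and 21.3 CPM for ENO2. Between 10 and 40 CPM lay 37 cells for PCP4, 10 for PLCD4 and 26 for ENO2, so many calls were near the limit.

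The 3 genes met in the same cells. All 3 were positive in 19 cells from 7 animals, PCP4 with ENO2 alone in 25, PCP4 with PLCD4 alone in 2, and PCP4 as the only member in 41. ENO2 stood alone in 9 cells and PLCD4 in 2, and 56.6% of the cells carried none. Nearly every PLCD4-positive cell therefore carried PCP4 (21 of 23) and most carried ENO2 (19 of 23), whereas 24.1% of PCP4-positive cells carried PLCD4. Of the 19 cells with all 3, animal 10 gave 6, animal 2 gave 4, animal 4 gave 3, animals 7 and 9 gave 2 each, and animals 1 and 3 gave 1 each. Within animals, over the 9 animals with at least 8 cells (220 cells), the mean Spearman rho was 0.45 ± 0.22 (SD) for PCP4 and ENO2, 0.42 ± 0.24 for PCP4 and PLCD4, and 0.37 ± 0.22 for PLCD4 and ENO2. Each of these was above 0 in 9 of 9 animals.

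All 3 genes were positive most often in the cells with the most TRPM8. Among the 24 cells with TRPM8 at 100 CPM or more (9 animals), PCP4 was positive in 22, ENO2 in 20 and PLCD4 in 15, with medians of 790 CPM, 80.4 CPM and 57.1 CPM. Among the 36 cells with TRPM8 between 20 and 100 CPM, PCP4 was positive in 13, ENO2 in 8 and PLCD4 in 1. In the 73 cells with TRPM8 at 0 the counts were 17 (23.3%), 10 (13.7%) and 4 (5.48%). PLCD4 was thus about as rare between 20 and 100 CPM of TRPM8 (1 of 36) as in cells with TRPM8 at 0 (4 of 73). A further 93 cells had TRPM8 above 0 and under 20 CPM. Over these and the cells at 0 together, PCP4 was positive in 31.3%, ENO2 in 15.1% and PLCD4 in 4.22%. The PCP4 share in those 93 cells was therefore above 31.3%, against 13 of 36 between 20 and 100 CPM. A steady rise of PCP4 across the limit of 20 CPM is thus not shown. The bands were chosen after the values were seen.

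**Figure D1:**
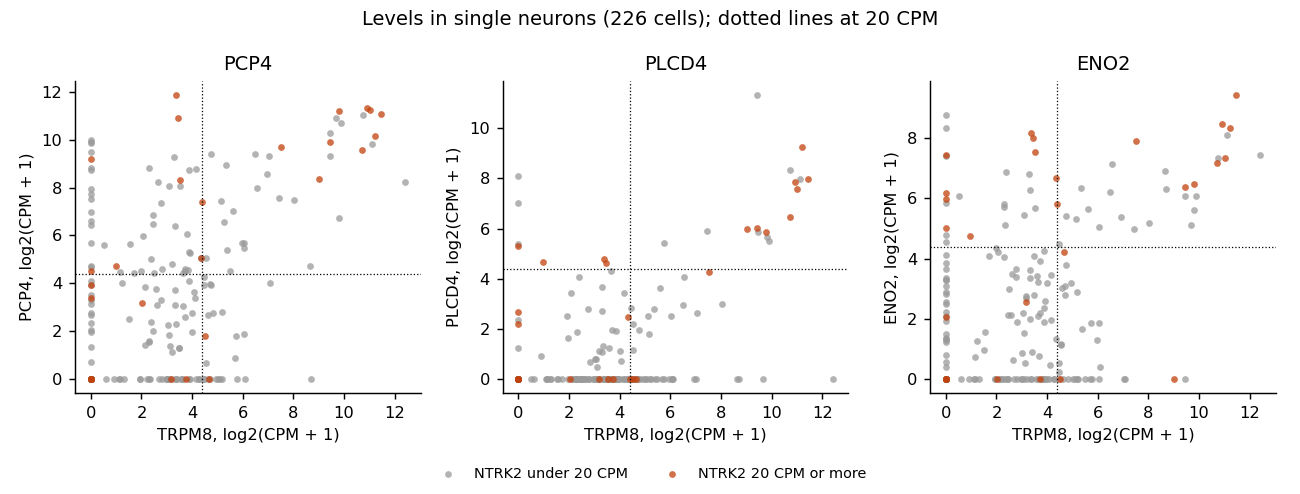
Each point is 1 neuron, with TRPM8 on the horizontal axis and PCP4, PLCD4 or ENO2 on the vertical axis, both as log2(CPM + 1). Orange points carry NTRK2 at 20 CPM or more (28 cells), and dotted lines mark 20 CPM. The 24 cells with TRPM8 at 100 CPM or more hold 22 PCP4-positive, 15 PLCD4-positive and 20 ENO2-positive cells.

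NTRK2 was read in the same way. Of the 28 NTRK2-positive cells (8 animals), 17 carried PCP4, 12 carried PLCD4 and 18 carried ENO2, against 35.4%, 5.56% and 17.7% of the cells under 20 CPM of NTRK2. In the 11 cells positive for both TRPM8 and NTRK2 the counts were 9, 8 and 8. In the 17 cells positive for NTRK2 with TRPM8 under 20 CPM they were 8, 4 and 10. Some of these 17 cells still had TRPM8 reads. The mean within-animal rho with TRPM8 was 0.37 ± 0.22 for PCP4, 0.39 ± 0.24 for PLCD4 and 0.33 ± 0.24 for ENO2. With NTRK2 it was 0.21 ± 0.30, 0.36 ± 0.23 and 0.27 ± 0.23. These points share libraries and depth: ENO2 also had a mean rho of 0.22 ± 0.15 with the number of genes detected, above 0 in 9 of 9 animals, and TRPM8 one of 0.25 ± 0.22.

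The 19 cells with all 3 members were also compared with the cells carrying none for markers of sensory neuron classes. SCN1A, the sodium channel of fast-conducting neurons, was positive in 15 of 19 (78.9%), against 7.03% of the cells with none of the 3. FOXP2, a transcription factor on the cold-sensing list, was positive in 47.4% against 0.781%, and CDH8, a cadherin on that list, in 52.6% against 17.2%. TAC1, the substance P precursor of peptidergic neurons, had medians of 500 CPM and 6462 CPM and was positive in 94.7% and 100% of the cells. ADCYAP1, the gene of the peptide PACAP in peptidergic neurons, had medians of 214.2 CPM and 1117 CPM but was positive in 84.2% and 68.75%, so its median and its share differed in direction. OSMR, the oncostatin M receptor of a class of C-fibre neurons, was positive in 31.6% and 39.8%, and the neuropeptide gene SST in 10.5% and 64.8%. The cells with all 3 thus carried SCN1A and FOXP2 more often and SST less often, with a lower median of TAC1, and ranges overlapped for each of these genes. This is the same table the members were chosen from, so these are descriptions.

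Cells were also sorted by 3 markers at 20 CPM: TRPM8, OSMR and ADCYAP1. In the 88 cells with ADCYAP1 alone, PCP4 was positive in 29, PLCD4 in 3 and ENO2 in 8, and in the 39 cells with OSMR alone in 9, 1 and 6. With OSMR and ADCYAP1 together (28 cells) the counts were 10, 1 and 9. PCP4 reached 3717 CPM in a cell with ADCYAP1 alone and at most 89.2 CPM in cells with OSMR alone.

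TRPM8 stood without OSMR and ADCYAP1 in 2 cells. ADCYAP1 was common whether or not TRPM8 was present, with 88 cells carrying it without TRPM8 and OSMR. Its presence beside TRPM8 is therefore not read as a pairing. In the 35 cells with TRPM8 and ADCYAP1, PCP4 was positive in 22, PLCD4 in 11 and ENO2 in 16, and in the 16 cells with all 3 markers in 11, 4 and 10. In the 7 cells with TRPM8 and OSMR each member was positive in 1. The mean over animals of PCP4, as log2(CPM + 1), was 5.52 ± 3.28 (SD, 10 animals) in cells with TRPM8 and ADCYAP1, 2.76 ± 1.37 (10 animals) with ADCYAP1 alone and 1.94 ± 1.08 (9 animals) with OSMR alone, so the animals' ranges overlapped. For PLCD4 these were 2.46 ± 1.99, 0.73 ± 0.82 and 0.21 ± 0.35, and for ENO2 2.83 ± 2.01, 1.56 ± 1.12 and 1.86 ± 1.36. ADCYAP1 alone and OSMR alone thus lay closer than the SD of the former for all 3 genes, and no test was run because the members were chosen from the clustering of these cells.

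The markers of other ganglion cell types were compared between PLCD4-positive cells and the rest. The summed macrophage markers (8 genes) had a median of 60.5 CPM in PLCD4-positive cells and 44.1 CPM in the others, and the fibroblast and vessel markers (5 genes) 15.7 and 14.4 CPM. The satellite glia markers (5 measured) were at 106.8 CPM (0 to 1506) in PLCD4-positive and 39.9 CPM (0 to 6226) in other cells. Schwann cell markers (6 genes) had medians of 895 and 892 CPM. The median of the satellite glia markers was thus the one that differed most between these groups, and the ranges overlapped. The part of these cells in the members' values was not tested.

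The genes most like PCP4 across cells, by mean within-animal rho among 5995 genes positive in at least 20% of cells, were COX4I1 (0.46), ENO2 (0.45), MT1X (0.44), MGST3 (0.42), HTRA1 (0.41), NDUFA4 (0.41), NDUFB4 (0.41) and NDUFA2 (0.40). PLCD4 and NTRK2 were positive in fewer than 20% of cells and so were not ranked in these lists. Their absence is therefore not a result. The mean rho of PLCD4 was 0.42 with PCP4, between those of MT1X and MGST3, and 0.37 with ENO2. COX4I1 is a subunit of cytochrome c oxidase and the NDUF genes encode subunits of respiratory complex I. TRPM8 ranked 18th. At the other end were TAC1 (-0.37), CHL1 (-0.35) and SCN11A (-0.34), the last a sodium channel of small nociceptors.

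The genes most like PLCD4 were PCP4 (0.42), PCDH9 (0.41), ALDOC (0.40), TRPM8 (0.39), NDUFS8 (0.38), COX4I1 (0.37), CNNM1 (0.37) and ENO2 (0.37). ALDOC is the brain form of the glycolytic enzyme aldolase. The least like were NECAB1 (-0.32), CLDN10 (-0.31) and RCAN3 (-0.29). For ENO2 the list was MGST3 (0.50), PFKM (0.50), ARMCX2 (0.48), HTRA1 (0.48), ANXA5 (0.46), PCP4 (0.45), NDUFS8 (0.44) and LRRN1 (0.44), with TAC1 (-0.30), ELL2 (-0.29) and STX2 (-0.29) last. PFKM is the muscle-type phosphofructokinase of glycolysis. The median rho over all ranked genes was 0.03 with PCP4, 0.06 with PLCD4 and 0.08 with ENO2.

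The recorded values are the deposited columns APD, AP_threshhold, X100Hz and Spontan_active, for which the files state neither a unit nor a definition. Median APD was 3.12 with 0 members, 3.15 with 1, 2.97 with 2 and 1.74 with 3. Median AP_threshhold was -42.4, -43.2, -44.0 and -54.4, and median X100Hz was 4, 3.5, 6 and 10. The share of cells marked 1 in Spontan_active was 16.4%, 21.2%, 33.3% and 52.6%. The cells with all 3 members thus had the lowest median APD and AP_threshhold and the highest X100Hz of the 4 groups. Grouping cells by the number of members was chosen after the data were seen, and no test was run on it.

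The cells with all 3 still overlapped the cells with none. APD ran from 0.678 to 4.41 in the former and from 1.29 to 9.13 in the latter, and X100Hz from 1 to 20 and from 0 to 20. In the 5 animals with at least 2 cells of each kind, the animal's median APD was lower in the cells with all 3 in 5 of 5 (1.89 ± 0.80 against 3.18 ± 0.50, mean ± SD over animals). AP_threshhold was lower in 4 of 5 (-52.0 ± 8.13 against -41.7 ± 2.37), and X100Hz was higher in 5 of 5 (10.5 ± 4.15 against 3.9 ± 1.60). The share marked 1 in Spontan_active was higher in 3 of 5 and lower in animals 4 and 7, at 0% in both (41.7% ± 40.0 against 12.2% ± 13.6). Without the 6 such cells of animal 10 the medians of the other 13 were 1.71, -56.2 and 10, and 5 of 13 were marked 1 in Spontan_active against 17.1% of the cells with none. Animal 10 thus gave 5 of the 10 marked cells with all 3 members. Diameter had medians of 40.1 and 37.003, and genes detected 14722 and 13456.5.

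TRPM8 divided these cells further. Of the 19 cells, 13 had TRPM8 at 20 CPM or more (all of them at 100 CPM or more) and 10 of those 13 were marked 1 in Spontan_active, with a median APD of 1.71 and a median AP_threshhold of -56.2. The 6 cells with all 3 members and TRPM8 under 20 CPM came from 5 animals and 0 of 6 were marked 1, with medians of 2.49 and -45.8. The 22 TRPM8-positive cells with none of the members had a median APD of 3.14 and a median AP_threshhold of -41.6, and 5 of 22 were marked 1. The cells with neither had medians of 3.12 and -42.4, and 15.1% were marked 1. Of these 4 groups, the 13 cells with TRPM8 and all 3 members had the lowest median APD and AP_threshhold and the largest marked share. The groups were not matched for TRPM8 level: 1 of the 22 TRPM8-positive cells with none of the members was at 100 CPM or more. The 24 cells with TRPM8 at 100 CPM or more, whatever members they carried, had medians of 1.96 and -53.8. Of those 24, 54.2% were marked 1. Whether the members add to TRPM8 level here was not tested.

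**Figure D2:**
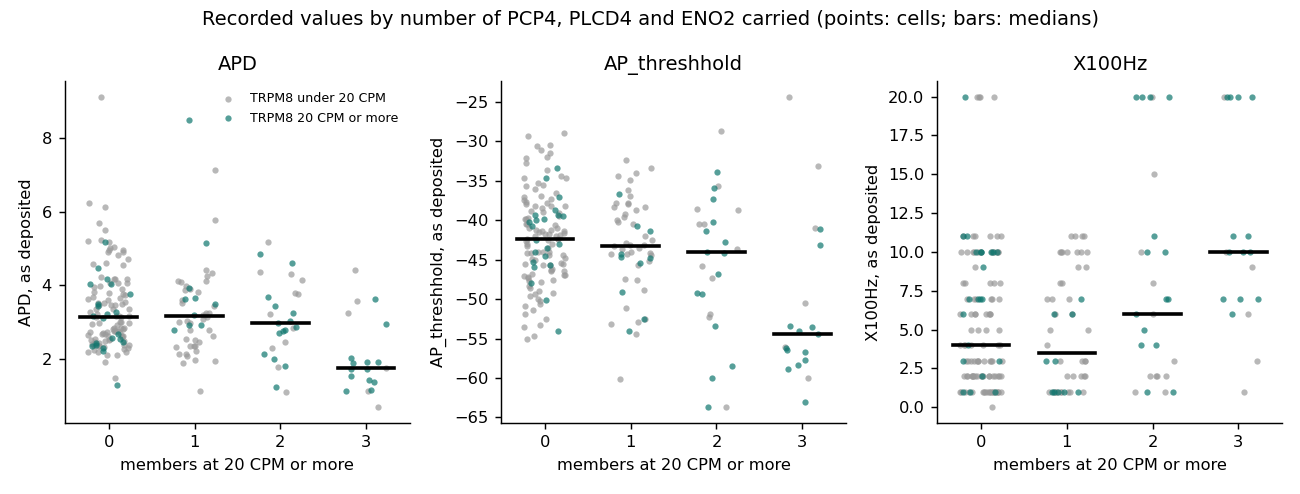
APD, AP_threshhold and X100Hz of each neuron, in the deposited units, against how many of PCP4, PLCD4 and ENO2 it carried at 20 CPM or more. Points are cells (teal with TRPM8 at 20 CPM or more) and bars are medians, which for APD are 3.12 with 0 members (56.6% of the cells), 3.15 with 1 (52 cells), 2.97 with 2 (27 cells) and 1.74 with 3 (19 cells).

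To test each recorded value over animals, the cells of each animal were divided at that animal's own median, the counts of each side were summed, and the sums were compared by the quasi-likelihood test of edgeR, blocked on the animal, with p adjusted by Benjamini-Hochberg over all genes. For X100Hz this gave 9 animals, with 97 cells above their median (45.3%) and the others at or below it. PLCD4 was higher in the cells above the median. Its summed level was 0 CPM at the lowest, 24.3 CPM at the median and 166.4 CPM at the highest above the median, against 0, 0.92 and 31.3 CPM at or below it. It was higher above the median in 8 of 9 animals and at 0 on both sides in animal 8, and the sides overlapped in level between animals. The log2 fold change was 4.01 ± 0.71 (SE) with an edgeR adjusted p of 0.0086. These sums rested on few cells: PLCD4 was positive in 16 of the 97 cells above the median and in 6 cells at or below it. By share of positive cells PLCD4 was higher above the median in 7 of 9 animals and equal in 2. In animals 5 and 6 that share was 8.33% and 6.67% above the median, against 0% at or below it. In animal 7 it was 6.67% on both sides.

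ENO2 was also higher above the median of X100Hz. It had 0, 41.6 and 117.8 CPM (lowest, median, highest) above the median and 1.03, 9.96 and 34.01 CPM at or below it, and was higher in 8 of 9 animals, with animal 8 the other way (0 against 5 counts). Its log2 fold change was 2.10 ± 0.50 with an edgeR adjusted p of 0.046. In the fits that left out 1 animal, ENO2 no longer passed without animal 1, 2, 4, 5, 6, 9 or 10 (edgeR adjusted p from 0.061 to 0.123), and it passed without animal 7 or 8. PLCD4 passed in each of these 9 fits (edgeR adjusted p from 0.0046 to 0.035). With limma on means of single cells ENO2 had a difference of 0.48 (adjusted p = 0.55). With no animal block neither PLCD4 nor ENO2 passed (edgeR adjusted p = 0.23 and 0.34).

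PCP4 did not pass. Its sums were 0.54, 306 and 1433 CPM above the median and 1.15, 42.96 and 389 CPM at or below it. It was higher in 7 of 9 animals and lower in animals 6 and 8, with a log2 fold change of 2.44 ± 0.62 and an edgeR adjusted p of 0.067. Without animal 5, 6 or 10 the edgeR adjusted p was 0.033, 0.026 and 0.0497. So 2 of the 3 members were called, where 1.64% of the 17581 genes tested were called (40 higher and 248 lower, 0.228% and 1.41%). These 2 calls are not separate, because 19 of the 23 PLCD4-positive cells also carried ENO2. TRPM8 was higher by 3.07 ± 0.61 (edgeR adjusted p = 0.015), and NTRK2 had a difference of 1.38 ± 0.58 (edgeR adjusted p = 0.36).

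Markers of other neuron classes moved with X100Hz as well. All 6 genes of the OSMR and SST class fell above the median, among them IL31RA by 3.98 and OSMR by 3.84 on the log2 scale, and 21.6% of the cells above the median were OSMR-positive against 57.3% of those at or below it. TRPM8-positive cells made up 35.1% and 20.5%. SCN1A was higher by 1.75 ± 0.32 (edgeR adjusted p = 0.0093), the 1 called of 8 tested A-fibre markers. Diameter had medians of 31.6 and 40.9, and genes detected 13420 and 13509. Without OSMR-positive cells 0 genes were called by edgeR (461 at an unadjusted p under 0.05), and the differences were 0.31 for PCP4, 2.30 for PLCD4 and 1.71 for ENO2, none of them called. Without TRPM8-positive cells 86 genes were called and the differences were 2.78, 1.77 and 0.83, all with edgeR adjusted p of 0.15 or more (0.15, 0.61 and 0.73). The part of the OSMR-positive cells and of cell size in these calls was not tested beyond these fits.

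For APD, the 10 animals gave 110 cells above their median (48.7%) and the others at or below it, and none of the 3 genes passed. PLCD4 had 0, 0.89 and 18.2 CPM above the median and 0, 20.7 and 114.5 CPM at or below it, lower above the median in 8 of 10 animals, higher in animal 5 and at 0 on both sides in animal 8. Its log2 fold change was -3.80 ± 0.90 (edgeR adjusted p = 0.089). PCP4 had 0.36, 37.6 and 115.98 CPM against 0.52, 227.01 and 1058 CPM, lower in 8 of 10 animals, at -2.94 ± 0.74 (edgeR adjusted p = 0.12). For ENO2 the sums were 0.94, 10.5 and 42.03 CPM against 0, 33.4 and 92.2 CPM, lower in 8 of 10, at -1.57 ± 0.45 (edgeR adjusted p = 0.18). Thus 0 of 3 members were called where 0.44% of 17254 genes were (76 genes, with 0.371% higher and 0.0695% lower). The unadjusted p of each was under 0.05, as for 9.89% of genes, and DESeq2 called all 3 while limma on means of single cells called none of them. Without animal 5, in which PCP4 and PLCD4 went the other way, edgeR called PCP4 (-3.39, adjusted p = 0.020) and PLCD4 (-4.35, adjusted p = 0.016).

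**Figure D3:**
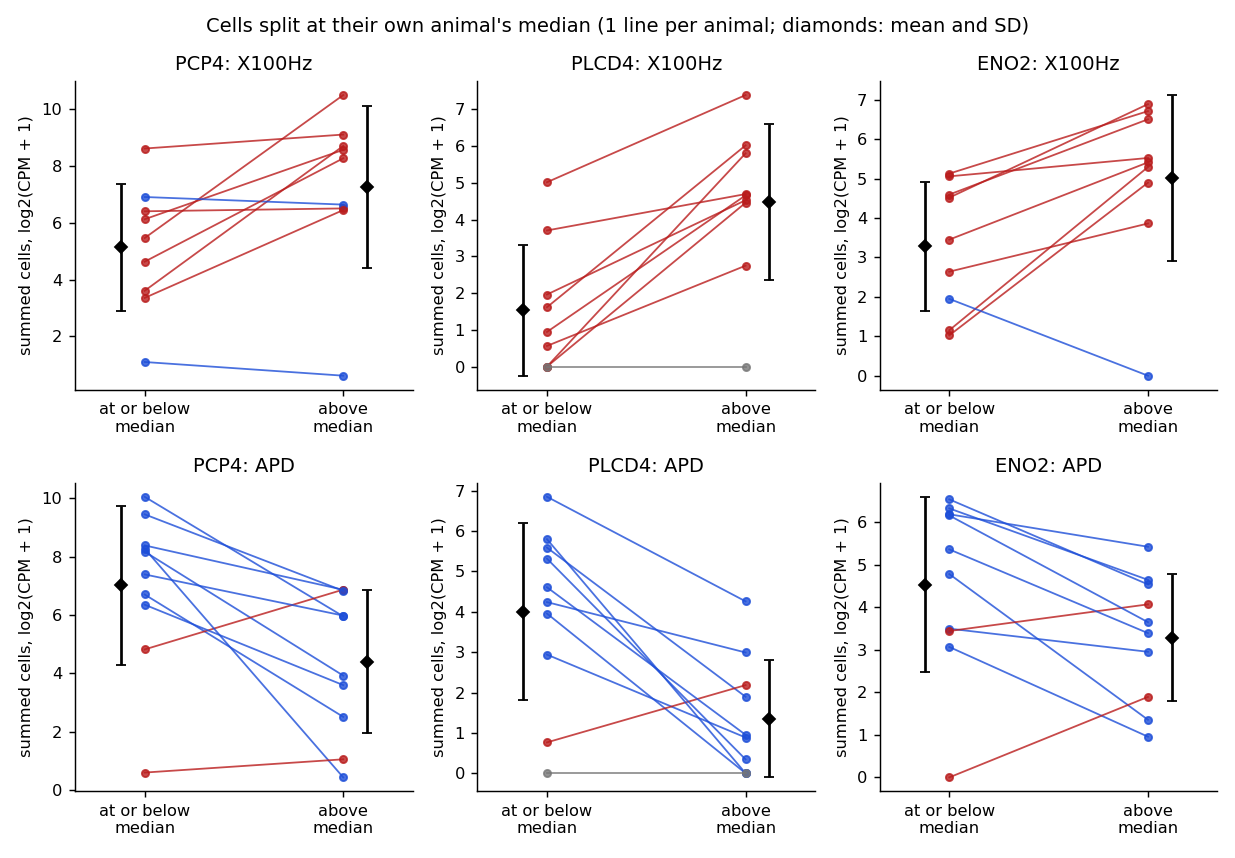
Summed level as log2(CPM + 1) of PCP4, PLCD4 and ENO2 in cells at or below and above their own animal's median of X100Hz (top, 9 animals) or APD (bottom, 10 animals). Each line is 1 animal, red where it rises and blue where it falls to the right, grey where both sides are at 0, and diamonds with bars are the mean and SD. PLCD4 is higher above the X100Hz median in 8 of 9 animals and lower above the APD median in 8 of 10.

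OSMR-positive cells also differed between the APD sides, making up 53.6% above the median and 26.7% at or below it. TRPM8-positive cells made up 25.5% and 27.6%. Without OSMR-positive cells the members' differences were -2.64 for PCP4, -4.31 for PLCD4 and -3.31 for ENO2, none of them called by edgeR (adjusted p = 0.76, 0.76 and 0.39), with 0 genes called in all (932 at an unadjusted p under 0.05). For that fit each animal's median was taken anew in the remaining cells. Its sides were thus not those of the fit with all cells, and the sizes are not compared. In the split of all cells, 15 of the cells with all 3 members lay at or below the APD median of their animal and 4 above it.

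For AP_threshhold, 9 animals entered with 48.6% of their cells above their median, and 0 of 3 members passed where 0.0112% of 17923 genes did (2 genes, with 4.37% at an unadjusted p under 0.05). PLCD4 had sums of 0, 0.76 and 16.4 CPM above the median and 4.09, 20.4 and 149.3 CPM at or below it, and was lower above the median in 9 of 9 animals, by a margin of 0.04 on the log2 scale in animal 7. The difference was -3.76 ± 0.74 (edgeR adjusted p = 0.28, DESeq2 adjusted p = 5.1e-04), and the edgeR call differed from that of DESeq2. Over the alternatives of this result the adjusted p ran from 5.1e-04 to 0.97. PCP4 differed by -2.17 ± 0.77 (lower in 7 of 9) and ENO2 by -1.58 ± 0.76 (lower in 7 of 9), both with an edgeR adjusted p of 1.0. OSMR-positive cells made up 39.3% and 41.6% of the sides, and TRPM8-positive cells 20.6% and 32.7%.

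Cells marked 1 in Spontan_active (51) were compared with the others within 10 animals. PLCD4 had sums of 0, 10.2 and 165.8 CPM in the marked cells and 0, 4.99 and 28.4 CPM in the others, higher in 6 of 10 and lower in 3, with a log2 fold change of 2.29 ± 1.20 (edgeR adjusted p = 0.70). PCP4 differed by 0.19 ± 0.48 (higher in 5 of 10) and ENO2 by 0.33 ± 0.67 (higher in 6 of 10), with edgeR adjusted p of 0.94 and 0.92. So 0 of 3 members were called where 0.0113% of 17624 genes were (2 genes, with 7.37% at an unadjusted p under 0.05). By share of cells, 55.1% ± 33.7 (SD, n = 10 animals) of marked cells were PCP4-positive against 30.3% ± 17.6 of the others, higher in 7 of 10 animals and lower in 2. For PLCD4 the shares were 23.2% ± 27.1 and 5.75% ± 4.81, higher in 6 and lower in 3. For ENO2 they were 30.2% ± 29.5 and 17.6% ± 15.5, higher in 6 and lower in 2. An animal had 2 to 9 marked cells, so these shares are coarse. A share counts each cell once, whereas a sum follows the cells with the highest level. TRPM8 differed by 2.53 ± 1.01 (edgeR adjusted p = 0.63).

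Across the cells of each animal the same values gave weak rank correlations that varied between animals. With APD the mean rho was -0.24 ± 0.18 for PCP4, -0.23 ± 0.28 for PLCD4 and -0.17 ± 0.20 for ENO2, each below 0 in 7 of 9 animals. With AP_threshhold it was -0.20 ± 0.36, -0.27 ± 0.27 and -0.16 ± 0.26. With X100Hz it was 0.23 ± 0.26, 0.24 ± 0.16 and 0.09 ± 0.19, above 0 in 7, 8 and 6 of 9 animals. With Spontan_active it was 0.19 ± 0.22, 0.24 ± 0.23 and 0.06 ± 0.22. Without TRPM8-positive cells (8 animals, 7 for PLCD4) the means with APD were -0.11, -0.02 and -0.06, and with X100Hz 0.16, 0.10 and -0.13. With AP_threshhold they were then 0.0048, -0.051 and -0.0078, and with Spontan_active -0.0018, 0.053 and -0.077. Without OSMR-positive cells (8 animals) those with APD were -0.27, -0.24 and -0.27. TRPM8 itself had means of -0.18 ± 0.21 with APD and 0.18 ± 0.24 with X100Hz.

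**Figure D4:**
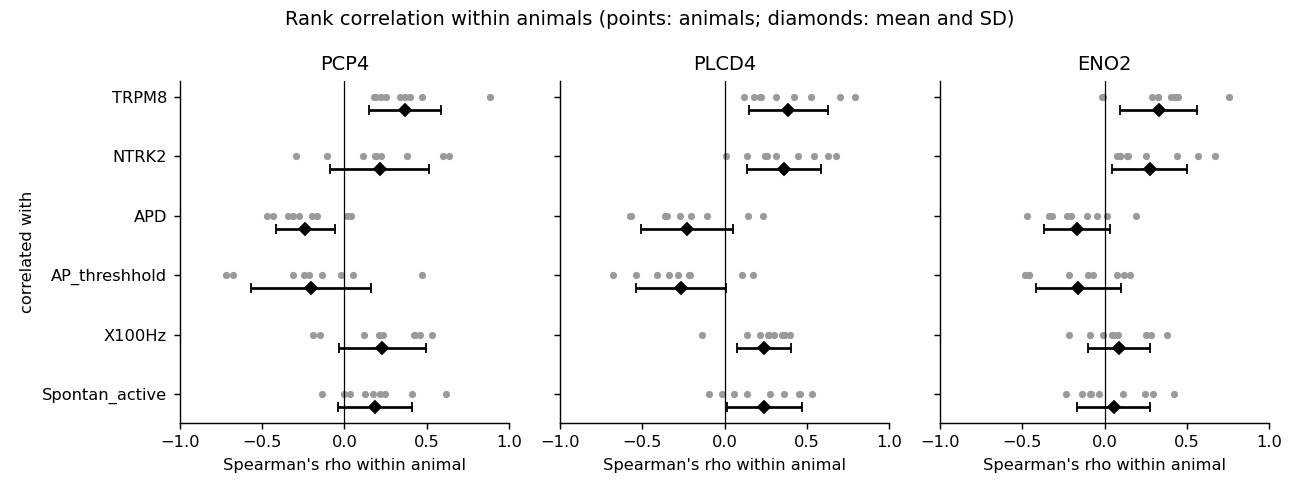
Spearman's rho within each animal between PCP4, PLCD4 or ENO2 and TRPM8, NTRK2 and the 4 recorded values. Points are animals with at least 8 cells (9 animals, 220 cells) and diamonds with bars are the mean and SD. Means with APD lie at -0.24, -0.23 and -0.17, and single animals lie on both sides of 0 for each recorded value.

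The relatives of the members were not called in the X100Hz comparison. ENO1 differed by -0.05 ± 0.14 and ENO3, the muscle enolase, by -0.19 ± 0.44 (edgeR adjusted p = 0.95 and 0.93). PLCD1, another delta-type phospholipase C, differed by -1.15 ± 0.40 (edgeR adjusted p = 0.23), and PLCD3 was too low to be tested there. PCP4L1, a PCP4-like gene, differed by 0.39 ± 0.67 (edgeR adjusted p = 0.90). CALM2 and CALM3 differed by -0.32 and -0.02 (edgeR adjusted p = 0.055 and 0.99). The difference between a member and its relative was not itself tested.

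The pathways around the members were taken as 3 lists, chosen with earlier results of these data known, and each holds a member. Over all genes 1.64% were called for X100Hz, 0.228% higher and 1.41% lower. Of 19 tested genes of enolase and glycolysis, ENO2 rose and LDHA, the lactate dehydrogenase A subunit, fell by 0.59 (edgeR adjusted p = 0.045) above the X100Hz median, with a list median of -0.09 against -0.01 over all genes. Of 29 tested genes of phospholipase C and phosphoinositide turnover, PLCD4 rose and 4 fell: PLCB3 by 2.38, PLCG1 by 1.61, DGKB by 1.47 and DGKH by 0.57 (edgeR adjusted p = 0.012, 0.0073, 0.019 and 0.012), with a list median of -0.25. PLCB3 and PLCG1 are phospholipases C activated through G proteins and receptor tyrosine kinases, and DGKB and DGKH are diacylglycerol kinases. Of 18 tested genes of calmodulin and its binding partners, 0 were called by edgeR in either direction, with a list median of -0.23. In the APD, AP_threshhold, Spontan_active, day and age comparisons 0 genes of these 3 lists were called by edgeR, where at most 0.44% of all genes were.

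By day in culture the pooled share of PCP4-positive cells was 32.3% (24.1 to 41.2%) at day 1, 41.03% (30.01 to 52.7%) at day 2 and 62.5% (40.6 to 81.2%) at day 3. ENO2 was at 16.1% (10.1 to 23.8%), 28.2% (18.6 to 39.5%) and 45.8% (25.6 to 67.2%), and PLCD4 at 9.68% (5.10 to 16.3%), 7.69% (2.88 to 15.99%) and 20.8% (7.13 to 42.2%). Pooled shares mix animals in different proportions, and the intervals cover counting error only. Animal 4, one of the 3 animals with day 3, had 9 of 10 PCP4-positive cells at day 1, 9 of 18 at day 2 and 6 of 7 at day 3.

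Within the 7 animals with at least 3 cells at both days, the share did not move beyond the spread between animals. PCP4 was at 36.97% ± 25.8 at day 1 and 43.7% ± 23.1 at day 2, higher in 4 of 7 animals, with a difference of 6.68 ± 30.4 percentage points (exact two-sided sign-flip p = 0.594). ENO2 differed by 4.47 ± 23.4 points (exact p = 0.594), higher in 4 of 7, and PLCD4 by -3.15 ± 10.5 points (exact p = 0.4375), lower in 4 of 7. The sizes moved with the limit for a positive cell. PCP4 differed by 13.01 points at 5 CPM (higher in 4, lower in 3) and 14.1 points at 100 CPM (higher in 5, lower in 1), with exact p of 0.234 and 0.156. ENO2 differed by 13.6 and 0.846 points (exact p = 0.281 and 0.781), and PLCD4 by -0.545 and -0.623 points (exact p = 1 and 0.9375). The smallest p that 7 animals allow is 0.015625. By summed counts, day 2 against day 1 gave 0.62 ± 0.89 for PCP4, -1.98 ± 1.36 for PLCD4 and -0.21 ± 0.41 for ENO2. No gene of 20267 was called by edgeR there (0%, with 3.73% at an unadjusted p under 0.05), whereas DESeq2 called 29 and limma 0.

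**Figure D5:**
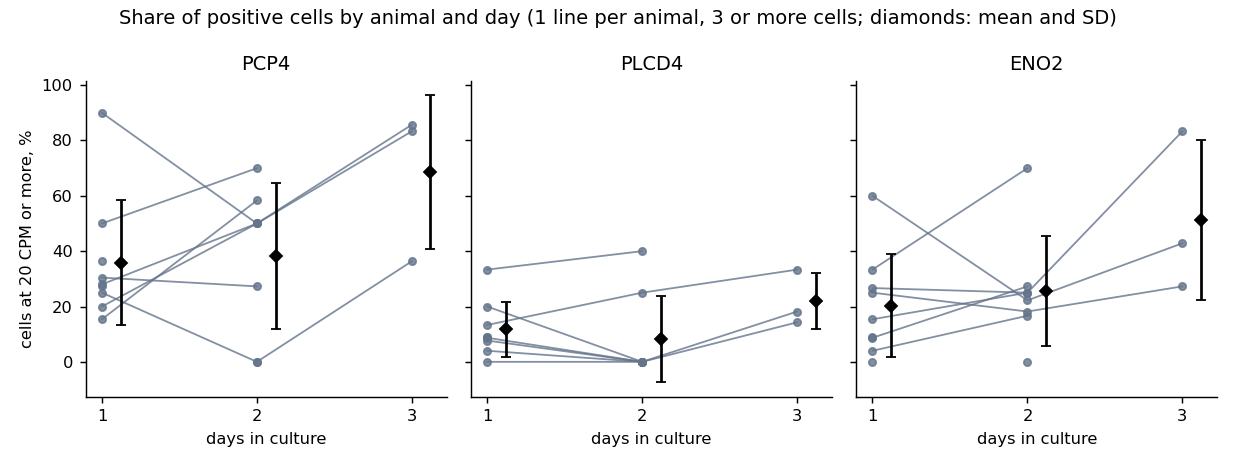
Percent of cells at 20 CPM or more for PCP4, PLCD4 and ENO2 by day in culture, with 1 line per animal (animal and day with at least 3 cells) and diamonds with bars for the mean and SD over animals. Lines cross between day 1 and day 2, and 3 animals reach day 3.

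Day 3 rested on 3 animals. Their PCP4 sums were 1792 CPM at day 3 and 76.5 CPM at day 1 in animal 2, 479 and 11.5 CPM in animal 7, and 292 and 406 CPM in animal 4. PCP4 was thus higher at day 3 in 2 of 3 animals, and the values of the 2 days overlapped. The difference was 3.63 ± 1.31 for PCP4, 1.62 ± 0.57 for ENO2 and 0.88 ± 2.32 for PLCD4 (edgeR adjusted p = 0.29, 0.29 and 0.90), so 0 of 3 were called where 0.00493% of 20267 genes were (1 gene). DESeq2 called 713 genes and, of the members, PCP4 (3.66, adjusted p = 0.044). Over the alternatives of the PCP4 result the adjusted p ran from 0.044 to 0.83. Genes detected per cell had a median over animals of 10476 at day 3 (3 animals) and 14226 at day 1 (9 animals). TRPM8-positive cells made up 29.2% and 24.6% of the cells in these sums, which differ in their animals. In the 3 animals with both days the mean TRPM8-positive share was 29.7% ± 3.19 (SD) at day 3. It was 30.6% ± 8.22 at day 1.

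For age, a slope per week was fitted to the day 1 sums of 9 animals. The slope was 0.01 ± 0.17 for PCP4, 0.37 ± 0.20 for PLCD4 and 0.13 ± 0.20 for ENO2 on the log2 scale (edgeR adjusted p = 1.0, 0.84 and 0.97). No gene of 19731 was called by edgeR (0%, with 6.2% at an unadjusted p under 0.05), whereas DESeq2 called 53 and limma 1. The sign of the PCP4 slope turned without animal 1, 2, 3 or 10. The single animal of 20 weeks, with 6 cells, had none of the 3 genes at 20 CPM, and its 2 cells at day 1 were too few for the slope.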

How the data were processed

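Estimated counts per cell for 30420 genes were deposited by the authors, unscaled for library size. Of the values above 0, 52.0% were not whole. Per the submitters' processing notes, bcl2fastq 2.20 was used. The aligner, counter, build and gene models were not given in the sources used here. The deposited cell table gives the recorded values by the authors as other quantities, with no unit per the file headers; 43 of its 269 lines belong to no sample analysed here. Symbols came from the gene name table (14867 genes matched).

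CPM is counts per 1000000 counts of the cell, and a cell is positive at 20 CPM. Estimated counts were summed per animal and side of the animal's median (at least 3 cells a side, 2 for Spontan_active) or by animal and day in culture (same minimum of 3), then rounded to whole numbers. Cells at the median fell on the lower side, and in subsets of cells each animal's median was taken anew. Sums were tested over all genes with edgeR 4.0.16 in R 4.3.3 (TMM, filterByExpr, animal as a block except for age, Benjamini-Hochberg, threshold 0.05, prior count 2). SEs were taken as the size of the log2 fold change over the root of the F statistic. Alternatives were RLE scaling, DESeq2 1.42.0, no filter, limma 3.58.1 on single-cell means of log2(CPM + 1), no animal block, subsets of cells, outer tertiles only, and leaving out each animal. The fitting script was tested on simulated data. Shares by day used an exact sign-flip test over animals, and correlations within animals needed 8 cells (Python 3.11.15, scipy 1.17.1, pandas 2.3.3). Binomial intervals are exact (95%).

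With Smart-Seq2 there are no molecular identifiers and no strand, so intervals cover counting error only and overlapping genes cannot be told apart. Depth per cell sets the floor: at the lowest total, 20 CPM is a few reads. No title replicate number pairs cells, so the animal was the block. The members and lists were chosen with earlier results of these data known. Named beside the members were the 8 genes most and 3 least like each by mean within-animal rho, at most 4 called genes a list and comparison, and fixed relatives, of which one is not reported here. SCN1A, FOXP2, CDH8, TAC1, OSMR, SST, UCHL1, IL31RA and ADCYAP1 were picked from the marker lists after their values were seen, as were the TRPM8 bands, the number of members carried and the fits without OSMR-positive cells.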

Additional observations from a re-analysis of the deposited data

Results flagged for a closer look

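In 6 of 39 sets of values by animal, 1 animal lay farther from the nearest other than the spread of the set allows at the 95% level, where chance marks about 1 set in 20. Animal 10 had the highest mean PLCD4 level, 3.14 as log2(CPM + 1) against 1.62 in the next of 10 animals. It also had the highest share of PLCD4-positive cells, 37.5% against 20%. The rho of PCP4 with TRPM8 was 0.884 in animal 10 and 0.467 in the next of 9 animals. PLCD4 had a rho of -0.135 with X100Hz in animal 4, against 0.139 in the next lowest of 9. ENO2 was higher above the AP_threshhold median by 6.84 on the log2 scale in animal 1, against 0.02 in the next of 9 animals. Animal 1 had 1 count of ENO2 at or below that median. ENO2 was lower above the X100Hz median in animal 8, with 0 counts against 5 in 3 cells a side. The prior count of 2 sets the size of that difference, -4.07 against 0.48 in the next, so it is no estimate of a fold, and it also weighs on the one of animal 1.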

How the results depend on the processing

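As a share of the genes tested, the APD comparison called 0.44% in the reported fit, 2.77% with DESeq2, 0.602% with no filter on low counts, 0.794% with limma, 0.139% with no animal block, 0% in day 1 cells, 0.896% with outer tertiles and 0% without OSMR-positive cells. AP_threshhold called 0.0112%, with 0.262% by DESeq2, 0.0532% with no filter, 0.0314% with outer tertiles, and 0% by limma, without TRPM8-positive cells and without OSMR-positive cells. X100Hz called 1.64%, with 4.11% by DESeq2, 0.54% with no animal block, 0.514% without TRPM8-positive cells, 0.596% in day 1 cells, 0.673% with outer tertiles and 0% without OSMR-positive cells. Spontan_active called 0.0113%, with 1.16% by DESeq2, 0.113% with no filter, 0.0581% in day 1 cells, and 0% by limma, with no animal block, without TRPM8-positive cells and without OSMR-positive cells. Day 2 called 0%, with 0.143% by DESeq2 and 0.00489% without TRPM8-positive cells. Day 3 called 0.00493%, with 3.52% by DESeq2, 0.00998% with no filter, 0.00987% by limma, 0.197% with no animal block and 0% without TRPM8-positive cells. The age slope called 0%, with 0.269% by DESeq2 and 0.00507% by limma.

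Members that passed only in an alternative were these. For APD, PCP4 passed with DESeq2 (-2.69), no filter (-2.96) and outer tertiles (-3.47), PLCD4 with the same 3 (-3.84, -3.83 and -4.83), and ENO2 with DESeq2 (-1.50) and no filter (-1.59). For AP_threshhold, PLCD4 passed with DESeq2 (-3.84), no filter (-3.75) and day 1 cells (-5.80). PCP4 passed for X100Hz with DESeq2 (2.23) and no filter (2.43), and for day 3 with DESeq2 (3.66).

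For X100Hz, PLCD4 no longer passed with no animal block (2.94), without TRPM8-positive cells (1.77) and without OSMR-positive cells (2.30). ENO2 no longer passed with limma (0.48), with no animal block (1.84), without TRPM8-positive cells (0.83), in day 1 cells (2.45) and without OSMR-positive cells (1.71). The cause was not tested.

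Signs turned in results that had not passed. Without TRPM8-positive cells ENO2 was at 0.43 for AP_threshhold, PCP4, PLCD4 and ENO2 at -1.74, -0.76 and -1.07 for Spontan_active, and the age slopes of PCP4 and ENO2 at -0.18 and -0.033. Without OSMR-positive cells PCP4 and ENO2 were at -0.77 and -0.044 for Spontan_active. With limma ENO2 was at 0.30 for day 2. Without TRPM8-positive cells the PCP4 share differed by -1.87 points between days and the mean rho was -0.13 for ENO2 with X100Hz, 0.0048 for PCP4 with AP_threshhold, and -0.0018 and -0.077 for PCP4 and ENO2 with Spontan_active. With a limit of 100 CPM for both genes, 87.5% of TRPM8-positive cells (21 of 24) carried PCP4. Only 4 cells were then NTRK2-positive, and 0 of these 4 carried PLCD4.

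Leaving out 1 animal at a time gave 0.218% to 0.645% of genes for APD (0.218%, 0.266% and 0.265% without animals 1, 7 and 9), with PCP4 from -3.39 to -2.49, PLCD4 from -4.35 to -3.35 and ENO2 from -1.84 to -1.34. AP_threshhold gave 0.011% to 0.0279% (the latter without animal 5), with PCP4 from -2.66 to -1.72, PLCD4 from -4.25 to -3.27 and ENO2 from -2.03 to -1.17. X100Hz gave 0.821% to 1.62% (1.07%, 1.05%, 0.821% and 0.896% without animals 1, 4, 7 and 9), with PCP4 from 2.02 to 2.88, PLCD4 from 3.57 to 4.54 and ENO2 from 1.80 to 2.37. Spontan_active gave 0% to 0.0178% (0% without animals 1, 2, 5 and 10), with PCP4 from -0.17 (without animal 9) to 0.45, PLCD4 from 1.78 to 2.87 and ENO2 from 0.04 to 0.72. Day 2 gave 0% in each, with PCP4 from -0.11 (without animal 2) to 1.30, PLCD4 from -2.86 to -0.91 and ENO2 from -0.46 to 0.23 (without animal 4). Day 3 gave 0% to 0.00499% (0% without animals 4, 5, 7, 9 and 10), with PCP4 from 1.63 to 5.00, PLCD4 from -2.13 (without animal 7) to 3.64 and ENO2 from 0.84 to 2.35. The age slope gave 0% in each, with PCP4 from -0.19 to 0.13, PLCD4 from 0.08 to 0.48 and ENO2 from 0.01 to 0.25. Shares between days ran from 0.640 to 14.5 points for PCP4, -5.62 to -0.342 for PLCD4 and -0.901 (without animal 10) to 11.5 for ENO2. PLCD4 had too few counts for a fit of APD or AP_threshhold without TRPM8-positive cells.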
